A study of Mus musculus with 5 samples.

Results

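The 3232 peaks described here lie within 1 kb of the start or end coordinate of a protein-coding gene, and are called boundary peaks. They come from 4 peak lists of a chromatin immunoprecipitation sequencing (ChIP-seq) experiment on mouse bone marrow macrophages (BMM), which hold 115354 peaks in all, 114226 of them on chromosomes 1 to 19 and X. A peak was kept where any base of its interval was at most 1 kb from a boundary of 1 of 21627 genes, and each list was taken alone, without merging. The boundaries come from RefSeq (GRCm38.p6, the coordinates of mm10). The gene table has no strand, so starts were told from ends through the strand of the RefSeq promoter table, which covers 17273 genes (79.9%). Position in an exon, intron or UTR was not analysed here.

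All cells were C57Bl/6 macrophages grown from marrow. The cell type label calls them M2, polarized in vitro, while the titles of the same samples read M0, which the labels do not explain. Sonicated, formaldehyde-fixed chromatin was precipitated with a c-Maf antibody (LifeSpan BioSciences; c-Maf_Ab 3 and c-Maf_Ab 4) or with normal rabbit IgG (Cell Signaling Technology; Iso 3 and Iso 4). The 1 input library, number 4, entered as the control of all 4 calls. The design text calls the 2 libraries of each antibody biological replicates, and no label names an animal or culture for a number.

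c-Maf is a basic leucine zipper transcription factor of macrophages, T helper cells and lens. Maf dimers bind the Maf recognition element, a palindrome with an arm on each side of a central core of the kind that AP-1 or CREB proteins bind, and they also bind a single arm of it. Gene starts carry the promoter, where the polymerase is loaded, while gene ends carry the polyadenylation site.

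Boundary peaks of both c-Maf_Ab lists, and of neither Iso list, covered 12 promoters of the RefSeq table, at 11 genes. The upstream parts at 6 of these loci are shown, since the same bases were recovered there in both c-Maf antibody libraries. They were chosen after their values were seen. Capitals mark the bases under the peaks of both c-Maf_Ab lists. Each run holds the bases of the table's upstream part that lie in no annotated gene, 5′ to 3′ on the strand of the gene named.
Zfp143 promoter, chr7:110061452-110061688, plus strand: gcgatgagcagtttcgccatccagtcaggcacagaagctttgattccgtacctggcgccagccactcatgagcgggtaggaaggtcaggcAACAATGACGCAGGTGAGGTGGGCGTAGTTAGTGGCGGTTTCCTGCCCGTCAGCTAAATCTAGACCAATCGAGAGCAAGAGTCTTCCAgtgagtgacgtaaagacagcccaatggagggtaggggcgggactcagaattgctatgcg
Idh1 (shared with Pikfyve) promoter, chr1:65186480-65186639, minus strand: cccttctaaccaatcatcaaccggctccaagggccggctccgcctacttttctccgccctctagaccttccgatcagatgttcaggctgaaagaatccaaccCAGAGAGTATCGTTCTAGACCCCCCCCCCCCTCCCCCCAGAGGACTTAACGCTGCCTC
C1qb promoter, chr4:136886201-136886450, minus strand: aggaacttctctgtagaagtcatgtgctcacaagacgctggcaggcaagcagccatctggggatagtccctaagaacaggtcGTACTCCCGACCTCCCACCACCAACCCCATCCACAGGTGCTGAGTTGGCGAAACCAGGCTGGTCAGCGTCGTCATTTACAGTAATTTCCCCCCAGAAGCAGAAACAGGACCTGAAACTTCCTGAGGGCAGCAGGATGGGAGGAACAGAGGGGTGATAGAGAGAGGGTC
C1qc promoter, chr4:136892937-136893164, minus strand: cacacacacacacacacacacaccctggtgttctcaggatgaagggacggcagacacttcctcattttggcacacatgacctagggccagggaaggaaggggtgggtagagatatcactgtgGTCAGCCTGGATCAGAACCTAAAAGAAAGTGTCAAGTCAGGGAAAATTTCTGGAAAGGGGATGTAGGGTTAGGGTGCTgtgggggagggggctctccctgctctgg
Acss2 promoter, chr2:155517793-155518042, plus strand: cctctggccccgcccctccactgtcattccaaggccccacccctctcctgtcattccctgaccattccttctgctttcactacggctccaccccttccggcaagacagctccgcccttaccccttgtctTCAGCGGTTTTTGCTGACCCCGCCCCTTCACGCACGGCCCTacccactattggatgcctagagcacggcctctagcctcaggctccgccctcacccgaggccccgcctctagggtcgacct
Cltc promoter, chr11:86757568-86757712, minus strand: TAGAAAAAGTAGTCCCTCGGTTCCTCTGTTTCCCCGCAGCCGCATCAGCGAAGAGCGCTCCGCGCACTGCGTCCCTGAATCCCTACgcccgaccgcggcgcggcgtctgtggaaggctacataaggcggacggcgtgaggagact

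The letters GCTGAC, the inner part of the single-arm element TGCTGAC, stood under both c-Maf_Ab peaks at 7 places in these promoters. This core was read off after the sequences had been seen. The 26 bases around 6 of the places follow, on the strand that spells the core, which is in capitals.
Acss2, chr2:155517924-155517949, plus strand: agcggtttttGCTGACcccgcccctt
C1qb near the start, chr4:136886188-136886213, plus strand: ggcccaacagGCTGACcctctctcta
C1qb upstream, chr4:136886292-136886317, plus strand: aaatgacgacGCTGACcagcctggtt
C1qc, chr4:136893027-136893052, plus strand: tctgatccagGCTGACcacagtgata
Pepd, chr7:34912388-34912413, plus strand: agctggttcaGCTGACgctgcactcc
Zfp143, chr7:110061580-110061605, minus strand: tctagatttaGCTGACgggcaggaaa
The seventh place, at Btaf1, lies too near the end of the table's window for the same flanks. Acss2 and Btaf1 carry the whole element TGCTGAC.

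Depth did not separate the libraries. The 4 antibody libraries held 21655683 to 22017759 tags after duplicate filtering. Their lists did differ in length, and Iso 3 stood apart, with 58732 peaks against 23434 and 17620 for c-Maf_Ab 3 and 4 and 15568 for Iso 4. Most of its peaks were weak, with a median summit pileup of 3.92 scaled tags. Differences between the antibody means are given without Iso 3 as well, here or among the alternatives. With 2 libraries against 2, an exact permutation test over libraries has 3 arrangements and cannot give a two-sided p below 0.333. Intervals below are 95% and cover counting error only.

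The c-Maf antibody lists placed a slightly larger share of their peaks at gene boundaries than the isotype lists did, and the difference rested mainly on the libraries numbered 3. Boundary peaks numbered 814 in c-Maf_Ab 3, 522 in c-Maf_Ab 4, 1455 in Iso 3 and 441 in Iso 4. They made up 3.51% of the peaks of c-Maf_Ab 3 (Wilson interval 3.28 to 3.76), 3.00% of c-Maf_Ab 4 (2.76 to 3.27), 2.49% of Iso 3 (2.37 to 2.62) and 2.88% of Iso 4 (2.62 to 3.15). The windows around all boundaries cover 78.4 Mb, or 2.98% of 2631 Mb. That total runs to the last peak of each chromosome and leaves out no unmappable sequence, so 2.98% is a rough scale. The share was above it in c-Maf_Ab 3, below it in Iso 3, and within its interval of it in both lists numbered 4. Summits per Mb within 1 kb of a boundary, relative to 10 to 50 kb away, were 1.03 in c-Maf_Ab 3 and 0.916 in c-Maf_Ab 4. They were 0.782 in Iso 3 and 0.893 in Iso 4. The means were 3.26% ± 0.36 for c-Maf_Ab and 2.69% ± 0.271 for Iso (SD, n = 2 each), a difference of 0.572 percentage points (exact permutation test, two-sided p = 0.333). The difference was 1.02 points between the lists numbered 3 and 0.126 points between those numbered 4, and 0.38 points without Iso 3.

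Among the few peaks to which the authors' caller gave a q-value of at most 0.05, boundaries took a larger share in every list. Such peaks at boundaries numbered 51, 27, 11 and 14 in c-Maf_Ab 3, c-Maf_Ab 4, Iso 3 and Iso 4, out of 688, 473, 219 and 376 in the same lists. The shares were 7.41% (5.68 to 9.62), 5.71% (3.95 to 8.18), 5.02% (2.83 to 8.77) and 3.72% (2.23 to 6.15). Both c-Maf_Ab intervals lay above the 2.98% of sequence, itself a rough scale, and both Iso intervals included it. Each c-Maf_Ab interval overlaps both Iso intervals, and that of c-Maf_Ab 4 holds the 5.02% of Iso 3. Read the other way, 6.27% and 5.17% of the boundary peaks of c-Maf_Ab 3 and 4 reached that q-value, against 2.85% and 2.65% of their other peaks. For Iso 3 and 4 the values were 0.756% and 3.17% at boundaries against 0.366% and 2.43% elsewhere. The boundary share of these peaks was 6.56% ± 1.21 for c-Maf_Ab and 4.37% ± 0.919 for Iso (SD, n = 2 each; exact permutation test, p = 0.333). Without Iso 3 the difference was 2.84 points in place of 2.19.

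**Figure D1:**
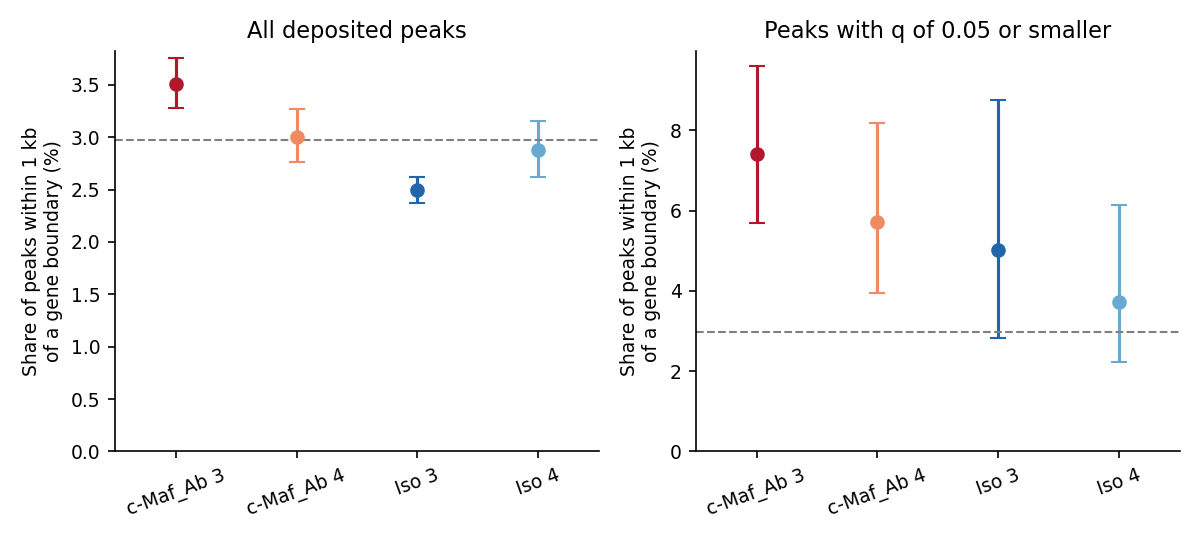
Share of peaks within 1 kb of a gene boundary (%, y axis) in each of the 4 lists (x axis), for all deposited peaks on the left and for peaks with a q-value of at most 0.05 on the right. Points are single libraries, bars are 95% Wilson intervals and the dashed line is the 2.98% of sequence that the windows cover. On the right both c-Maf_Ab bars lie above the line, and each overlaps both Iso bars.

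Boundary peaks were narrow, close to the shortest length that the caller can give. The caller's fragment length, which is also its minimum peak length, was 63 bp for c-Maf_Ab 3, 60 bp for c-Maf_Ab 4, 53 bp for Iso 3 and 56 bp for Iso 4. Median lengths of boundary peaks were 69, 64, 53 and 59 bp in that order. All 4 medians of the other peaks equalled the fragment length itself. The c-Maf_Ab mean of 66.5 bp ± 3.54 exceeded the Iso mean of 56.0 bp ± 4.24 (SD, n = 2 each) by 10.5 bp (exact permutation test, p = 0.333). Counted above the fragment length, an alternative chosen after the data were seen, the medians were 6, 4, 0 and 3 bp and the difference was 3.5 bp. Peaks at the minimum length made up 44.5% and 45.8% of boundary peaks in c-Maf_Ab 3 and 4, against 50.6% and 51.8% of their other peaks. In Iso 3 and 4 the shares were 50.4% and 47.2% at boundaries, against 51.7% and 52.4%.

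Summit pileup at boundaries did not separate the antibodies once Iso 3 was set aside. The medians were 5.82 and 5.92 scaled tags in c-Maf_Ab 3 and 4, 3.92 in Iso 3 and 5.89 in Iso 4. The means differed by 0.965 tags (exact permutation test, p = 0.667), and by -0.02 tags without Iso 3. Median fold enrichment over the local input level was 3.87, 3.95, 3.46 and 3.93 in the same order, against 3.89, 3.98, 3.46 and 4.03 for the other peaks. The top of the distributions differed more: the highest fold enrichment at a boundary was 9.09 and 7.52 in c-Maf_Ab 3 and 4, and 6.59 and 6.46 in Iso 3 and 4. The limit of 1 kb itself marked no step. Between 900 and 1000 bp from a boundary there were 65, 40, 114 and 39 peaks, with median folds of 3.90, 4.01, 3.46 and 3.99. In the 100 bp just beyond the limit there were 64, 44, 147 and 32, with median folds of 3.89, 3.81, 3.46 and 4.05.

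End peaks outnumbered start peaks in every list, though not beyond counting error in c-Maf_Ab 3, and the start share was higher in both c-Maf_Ab lists than in either Iso list. Of peaks that reached a start or an end but not both, 285 of 608 were at starts in c-Maf_Ab 3 (46.9%, Wilson interval 42.9 to 50.8), 169 of 391 in c-Maf_Ab 4 (43.2%, 38.4 to 48.2), 426 of 1086 in Iso 3 (39.2%, 36.4 to 42.2) and 139 of 330 in Iso 4 (42.1%, 36.9 to 47.5). The c-Maf_Ab mean was 4.37 points higher (exact permutation test, p = 0.333), with 7.65 points between the lists numbered 3 and 1.10 between those numbered 4. Without Iso 3 the difference was 2.93 points. At a q-value of at most 0.05, 24 start peaks stood against 14 end peaks in c-Maf_Ab 3, and 10 against 10 in c-Maf_Ab 4. In Iso 3 the counts were 4 against 4, and in Iso 4 they were 6 against 7.

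Summits were counted per Mb of sequence to allow for the sequence available at each distance. Within 1 kb of a start, their density was 1.02 times that at 10 to 50 kb in c-Maf_Ab 3, 0.838 times in c-Maf_Ab 4, 0.68 times in Iso 3 and 0.8 times in Iso 4. At ends the ratios were 1.14, 1.11, 1.02 and 1.05. The first 500 bp inside the gene held a local rise. There, density relative to each list's mean was 1.61 in c-Maf_Ab 3, 1.19 in c-Maf_Ab 4, 1.04 in Iso 3 and 0.96 in Iso 4, from 119, 66, 194 and 47 summits. In the 500 bp just before the start it was 1.23, 0.799, 0.571 and 0.822. The bin inside the start was higher than both of its neighbours in all 4 lists, isotype included.

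**Figure D2:**
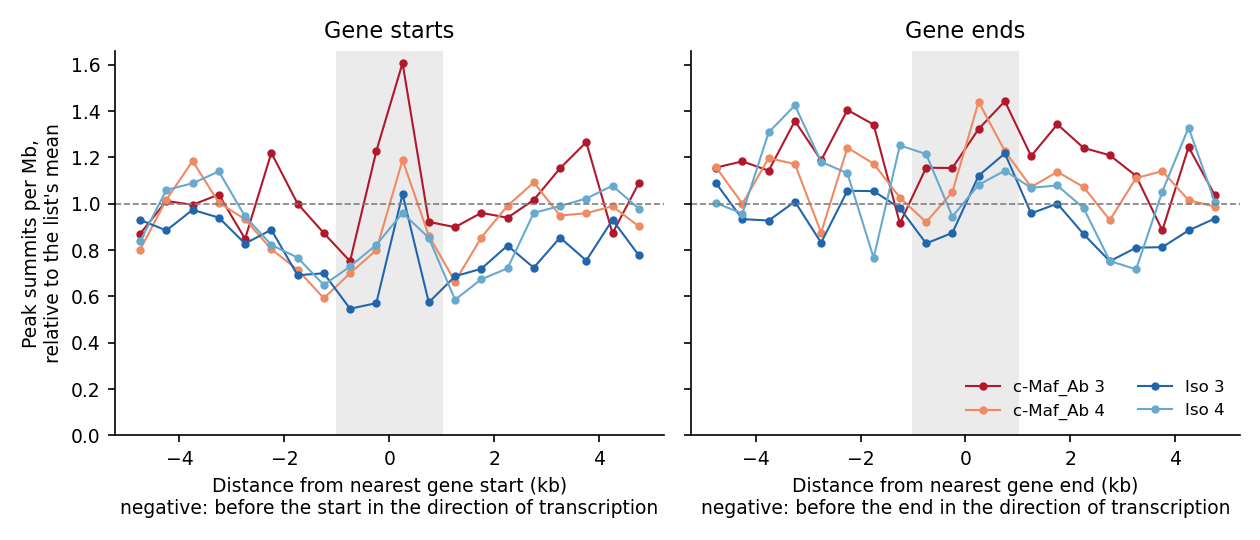
Peak summits per Mb relative to each list's mean (y axis) by distance from the nearest gene start (left) or end (right) in kb, in bins of 500 bp, for the 4 lists; the shaded band is the window of 1 kb. In the first bin inside the start c-Maf_Ab 3 reaches 1.61 and c-Maf_Ab 4 reaches 1.19, while Iso 3 and Iso 4 are at 1.04 and 0.96.

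Boundary peaks, above all those at starts, were recovered at the same bases by both c-Maf antibody libraries more often than peaks elsewhere. In c-Maf_Ab 4, 48 of 522 boundary peaks overlapped a c-Maf_Ab 3 peak by at least 1 bp (9.20%, Wilson interval 7.01 to 12.0), against 3.8% (3.52 to 4.10) of its other peaks. In c-Maf_Ab 3, 47 of 814 overlapped a c-Maf_Ab 4 peak (5.77%, 4.37 to 7.59), against 2.87% (2.66 to 3.10). At starts the shares rose to 27 of 169 (16.0%, 11.2 to 22.2) and 26 of 285 (9.12%, 6.30 to 13.03), and at ends they were 13 of 222 (5.86%) and 13 of 323 (4.02%). Iso 4 boundary peaks overlapped Iso 3 peaks in 27 of 441 cases (6.12%, 4.24 to 8.76), against 3.99% elsewhere, and in 10 of 139 cases at starts (7.19%, 3.95 to 12.7). Peaks shared with the partner and with neither list of the other antibody numbered 19 of 285 at c-Maf_Ab 3 starts (6.67%, 4.31 to 10.18) and 19 of 169 at c-Maf_Ab 4 starts (11.2%, 7.32 to 16.9). They numbered 7 of 426 at Iso 3 starts (1.64%, 0.798 to 3.35) and 7 of 139 at Iso 4 starts (5.04%, 2.46 to 10.03). Both c-Maf_Ab intervals overlap that of Iso 4. Boundary peaks were also shared across antibodies: 29 of 522 in c-Maf_Ab 4 overlapped an Iso 4 peak (5.56%), against 2.64% of its other peaks. At starts this rose to 14 of 169 (8.28%), and 14 of 139 Iso 4 start peaks overlapped a c-Maf_Ab 4 peak (10.1%). The latter share was above the 7.19% of Iso 4 starts with Iso 3, so a rise at starts was not particular to the c-Maf_Ab pair. It was lower for c-Maf_Ab 3 starts with Iso 3 and with Iso 4 (9 of 285, 3.16%, each) and for c-Maf_Ab 4 starts with Iso 3 (7 of 169, 4.14%).

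The lists hit 831 genes in c-Maf_Ab 3 (3.84% of the genes), 529 in c-Maf_Ab 4 (2.45%), 1415 in Iso 3 (6.54%) and 422 in Iso 4 (1.95%). Both c-Maf_Ab lists hit 81 genes (0.375%), which are 9.75% of those of c-Maf_Ab 3 and 15.3% of those of c-Maf_Ab 4. Both Iso lists hit 90 genes (0.416%), 6.36% of those of Iso 3 and 21.3% of those of Iso 4. By gene alone the antibodies did not stand apart: 46 genes were hit in both c-Maf_Ab lists and neither Iso list (0.213%), and 50 in both Iso lists and neither c-Maf_Ab list (0.231%). The position of the peaks did differ. The peaks of both lists overlapped at 29 of the 46 c-Maf_Ab-only genes, at 27 loci (0.134% of all genes), and at 9 of the 50 Iso-only genes (0.0416%). At the other 17 and 41 genes the lists had separate peaks somewhere within 1 kb of a boundary.

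Pairs that mix the antibodies give the scale of such sharing. Genes hit with overlapping peaks in 1 such pair, and in neither other list, numbered 16 for c-Maf_Ab 3 with Iso 3, 2 for c-Maf_Ab 3 with Iso 4, 8 for c-Maf_Ab 4 with Iso 3 and 4 for c-Maf_Ab 4 with Iso 4. The pair of c-Maf_Ab lists thus had the highest of the 6 counts, although every pair with Iso 3 drew on more boundary peaks. Over all genes that a pair shared, whatever the other lists held, peaks overlapped at 56 of 81 for the c-Maf_Ab pair (69.1%). The share was 63.3% for c-Maf_Ab 4 with Iso 4 (31 of 49) and 50% for c-Maf_Ab 3 with Iso 4. It was 44.4% for c-Maf_Ab 4 with Iso 3, 34.3% for c-Maf_Ab 3 with Iso 3 and 35.6% for the Iso pair. A high share of overlap was thus not particular to the c-Maf_Ab pair. With every list limited to its 15329 strongest peaks, the length of Iso 4, the counts were 25 c-Maf_Ab-only and 7 Iso-only genes with overlapping peaks. With the lists of both antibodies cut at a q-value of at most 0.05 they were 7 and 0. Of these 7 genes, 5 are among the 29, and the rest have an Iso boundary peak that the cut removed. Among the genes with overlapping peaks, 17 c-Maf_Ab-only and 5 Iso-only genes were hit at the start, 6 and 2 at the end, and 6 and 2 at a boundary of unknown kind. Whether or not the peaks overlapped, 23 gene starts were hit in both c-Maf_Ab lists and neither Iso list (0.133% of genes with a known strand), against 12 for Iso (0.0695%). Gene ends numbered 14 (0.0811%) and 16 (0.0926%).

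**Figure D3:**
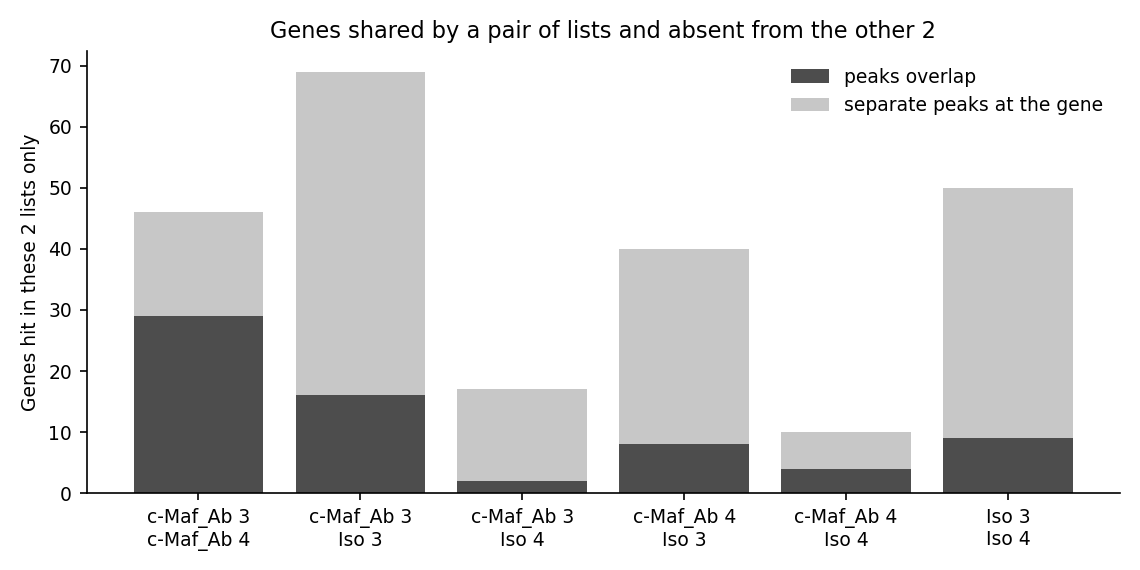
Number of genes hit in both lists of a pair and in neither of the other lists (y axis) for the 6 pairs of lists (x axis); dark bars are genes where the peaks of the pair overlap and light bars are genes with separate peaks. The c-Maf_Ab pair has 29 genes with overlapping peaks and the Iso pair has 9.

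The c-Maf_Ab-only genes with overlapping peaks were hit mostly at or near the start where the strand is known. Of the 29, 0 are predicted genes (symbols that begin with Gm or LOC or end in Rik), against 4 of all 46 c-Maf_Ab-only genes (8.70%) and 1666 of all 21627 genes (7.70%). Among as few as 29 genes, a count of 0 is near that share. By known strand 17 were hit at the start, 6 at the end, and for 6 the strand is unknown. At 13 of the 17, both summits lay within 250 bp of the start, against 1 of the 5 Iso-only start genes. The summits of both libraries were a median of 27 bp apart (1 to 149), and their peaks shared a median of 63 bp.

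**Figure D4:**
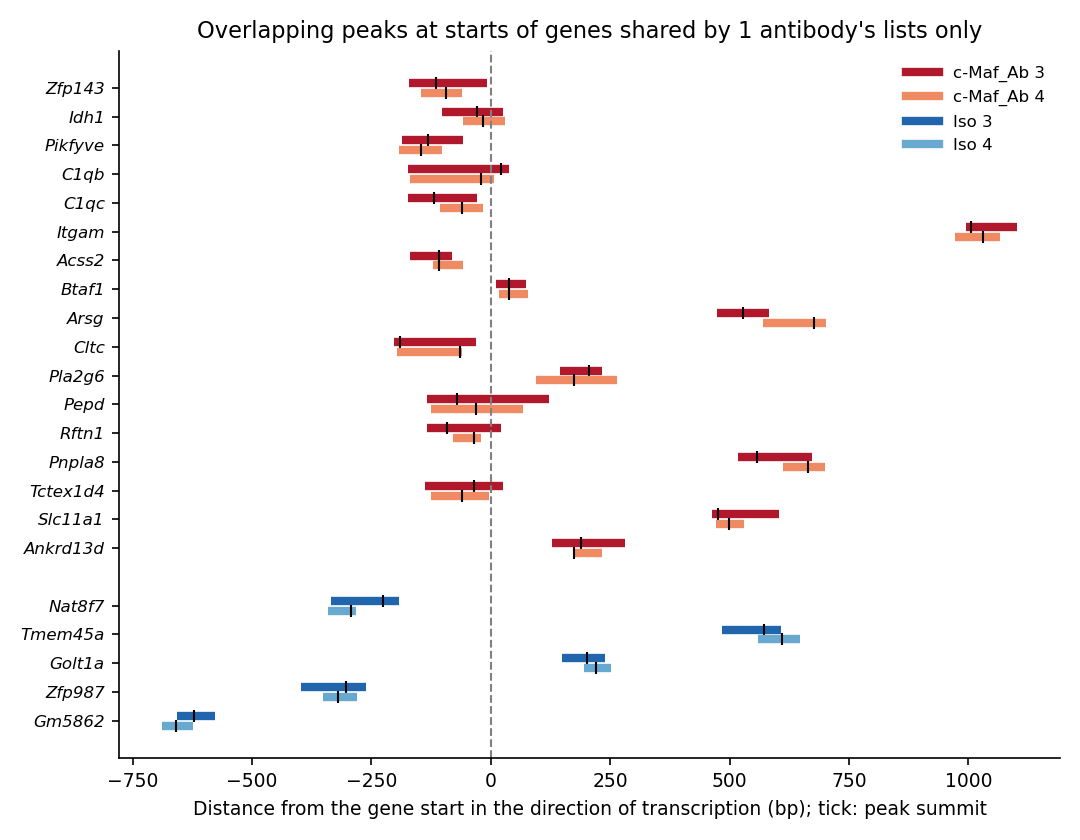
Position of the overlapping peaks relative to the gene start in bp (x axis, positive into the gene) for genes hit at the start in both lists of 1 antibody and in neither list of the other (y axis); bars are the peaks of each library and ticks their summits. Most c-Maf_Ab pairs cluster within 250 bp of the start (13 of 17 genes), and 1 of 5 Iso pairs does.

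There were 5 genes with peaks at a q-value of at most 0.05 in both c-Maf_Ab lists and no Iso boundary peak. Zfp143, a zinc finger factor that binds promoters, had a fold enrichment of 8.10 in c-Maf_Ab 3 (chr7:110061518-110061681) and 7.08 in c-Maf_Ab 4 (chr7:110061542-110061629). Its summits lay 114 and 94 bp before the start, with pileups of 11.7 and 9.87 tags. Eif4ebp1, which encodes an inhibitor of cap-dependent translation, had folds of 6.81 and 6.89, with peaks that ended 10 and 33 bp outside the gene (chr8:27260327-27275656, strand not in the table). The divergent pair Idh1 and Pikfyve shared 1 peak between their starts, with folds of 6.32 and 6.68. Idh1 encodes the cytosolic isocitrate dehydrogenase, and Pikfyve a lipid kinase of endosomes. The summits were 29 and 16 bp before the Idh1 start. The fifth gene, a, encodes the agouti signalling protein, and its peaks lay inside the gene 144 and 120 bp from its end, with folds of 6.67 and 7.52. All 5 exceeded the strongest Iso boundary peak at a gene hit in both Iso lists alone, whose fold was 6.13 in Iso 4 and 4.83 in Iso 3. Since the 5 were chosen by q-value, a bar that 0 Iso-only genes passed in both lists, this comparison was largely fixed by the choice. Over all genes the highest Iso boundary folds were 6.59 in Iso 3 and 6.46 in Iso 4, above the 6.32 of Idh1 and Pikfyve in c-Maf_Ab 3.

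Zfp9, a zinc finger gene, came next by rank, with folds of 6.02 and 4.45 from peaks 262 and 237 bp from a boundary of unknown kind, and passed a q-value of 0.05 in c-Maf_Ab 3 alone. The set also held 3 genes of complement. C1qb and C1qc encode chains of C1q, which starts the classical complement pathway. At C1qb the folds were 5.38 in c-Maf_Ab 3 and 4.94 in c-Maf_Ab 4, from peaks of 213 and 176 bp that spanned the start. At C1qc they were 5.46 and 4.45, with summits 118 and 61 bp before the start. The q-value was 0.05 or smaller for C1qc in c-Maf_Ab 3 alone, and for C1qb in neither list. Itgam encodes CD11b, a chain of complement receptor 3, and its folds were 4.55 and 6.03. Its peaks began 995 and 972 bp inside the gene, so it sat at the edge of the window. That none of these genes had a boundary peak in either Iso list follows from how the set was chosen.

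Other genes of this group have varied roles. Acss2, which makes acetyl-CoA from acetate, had folds of 4.48 and 5.94 and summits 1 bp apart, at its copy of TGCTGAC. Btaf1, which encodes an ATPase that acts on the TATA-binding protein, had folds of 4.19 and 4.94, with summits 39 and 38 bp into the gene. Cltc encodes the clathrin heavy chain, and its folds were 4.38 and 4.33. Pepd encodes a dipeptidase, and its folds were 3.90 and 4.68. Arsg, a lysosomal sulfatase gene, and Slc16a6, a monocarboxylate transporter gene, shared 1 peak in each list with folds of 6.50 and 4.02, although these peaks had only 14 bp in common. Slc15a3 encodes a lysosomal peptide transporter, and its folds were 3.25 and 5.78. Slc11a1 encodes a metal transporter of phagosomes, and its folds were 3.90 and 2.97. Khdrbs1, Pla2g6, Rftn1, Pnpla8, Tctex1d4, Ankrd13d and Ppp1r17 were reached near a start or an unassigned boundary, and Med29, Cln3, Cwc27, Aak1 and Kcnj16 near an end. The Ppp1r17 peaks of both lists had only 2 bp in common. Slc11a1, Ankrd13d, Aak1 and Kcnj16 rank after the 25 genes that the naming rule covers and were added after their values were seen.

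**Figure D5:**
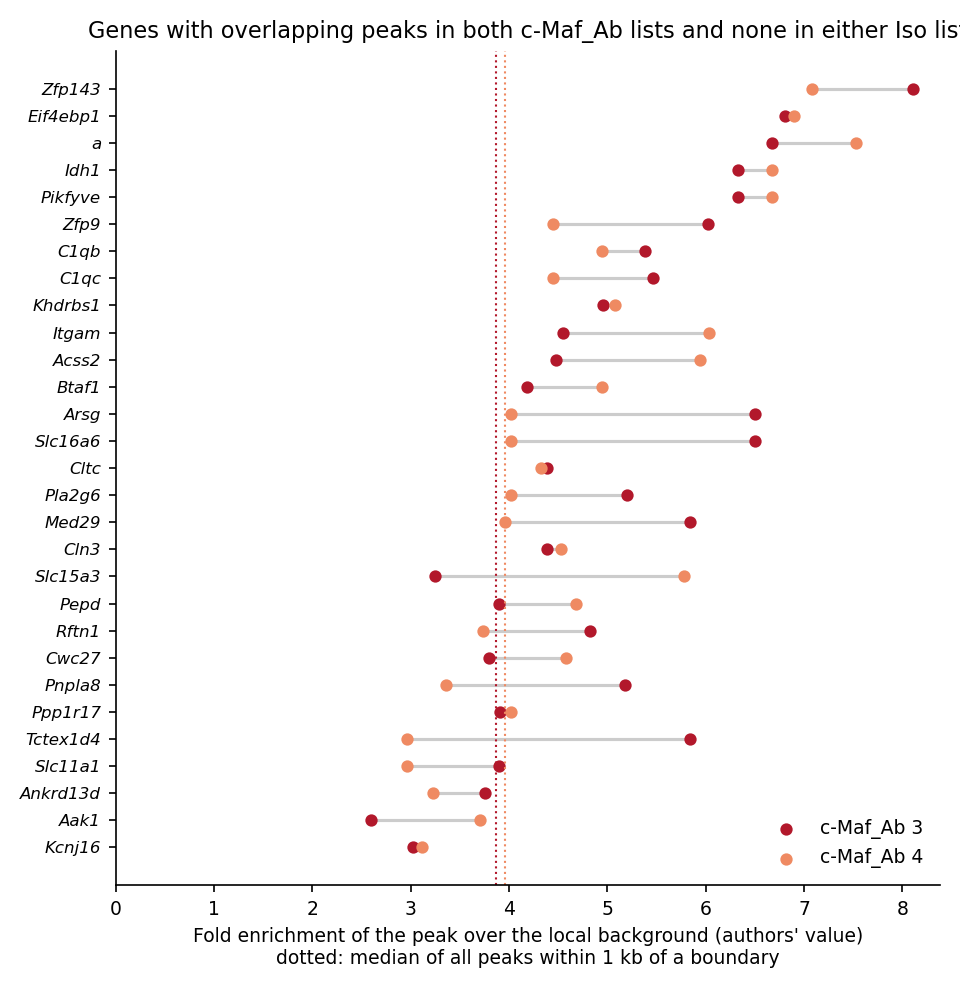
Fold enrichment of the peak over the local background (x axis, the authors' value) at the 29 genes with overlapping boundary peaks in both c-Maf_Ab lists and no boundary peak in either Iso list (y axis, ordered by rank of p). Points are the 2 libraries and dotted lines the medians of all boundary peaks. Zfp143 is highest in c-Maf_Ab 3 at 8.10 and a in c-Maf_Ab 4 at 7.52, against medians of 3.87 and 3.95.

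The 9 Iso-only genes with overlapping peaks were Nat8f7, Tmem45a, Golt1a, Zfp987, Foxf2, Htr3a, Gm5862, Igbp1b and AI182371. Their folds ran from 2.75 to 4.67 in Iso 3 and from 2.95 to 4.77 in Iso 4, and none reached a q-value of 0.05. The 29 c-Maf_Ab-only genes ranged from 2.60 to 8.10 in c-Maf_Ab 3 (median 4.95) and from 2.97 to 7.52 in c-Maf_Ab 4 (median 4.45). The upper part of that range lay above every Iso-only value. The next Iso-only genes by rank, Cacna1e, Glis3 and Prrg4, had separate peaks in the 2 lists.

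Genes hit in all 4 lists numbered 24 (0.111%), at 15 loci. Of these, 9 are predicted genes (37.5%), against 7.70% of all genes. The 9 Ugt1a genes hit, which encode UDP-glucuronosyltransferases, shared 1 peak in each list near their common end. Pileup there was 18.4 tags in c-Maf_Ab 3, 13.8 in c-Maf_Ab 4, 13.7 in Iso 3 and 13.7 in Iso 4, while fold enrichment was 3.89, 2.96, 2.94 and 2.95. Speer4e, of a rodent gene family with many similar copies, had pileups of 22.3, 26.6, 28.4 and 25.5 tags and passed the q-value of 0.05 in all 4 lists. The strongest boundary peaks of Iso 3 were at Speer4e, Speer4d, Zfp936 and LOC100504180, and those of Iso 4 at Gm9758, Speer4e, Pisd and Speer4d. Speer4e, Gm9758, LOC100504180 and Pisd were also among the 8 strongest of c-Maf_Ab 4, beside Zfp991. Reads from such copies can be placed at either, so these counts are uncertain.

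The strongest boundary peaks of c-Maf_Ab 3 included genes that no other list hit. Lrrk1, a kinase gene, and Pf4, which encodes a chemokine of platelets, both had a fold of 9.09, with peaks 926 and 820 bp outside the start. Wdr62, a gene of the centrosome, had a fold of 8.26 from a peak inside the gene 833 bp from its start. Kctd12 had a fold of 6.95, and the divergent genes Rad9b and Vps29, which act in the DNA damage checkpoint and in retromer, shared a peak with a fold of 7.14. In c-Maf_Ab 4 none of these genes had a boundary peak, and its peaks farther than 1 kb from them are not described here.

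The 15 gene lists, with 277 matched genes, were set beside the boundary peaks. They were written with earlier results of these data known, so an excess over the share of all genes may be partly built in. The counts are a description. Both c-Maf_Ab lists hit 5 of these genes, C1qb, C1qc, Itgam, Idh1 and Crygb, and both Iso lists hit 0, where the shares over all genes were 0.375% and 0.416%. The Iso count of 0 is near its share. Complement genes were hit in either c-Maf_Ab list at 7 of 24, against 5.91% of all genes, and in either Iso list at 1 of 24, against 8.08%. The 7 were C1qb, C1qc, Itgam, C3ar1, C1s1, C9 and C8a. C3ar1, the receptor gene for C3a, had a peak in c-Maf_Ab 3 alone, with a fold of 4.38 at 10 bp inside its start. At C1s1 the fold was 2.60, at C9 it was 4.19, and at C8a it was 3.74. C8b was the complement gene in Iso 3, with a fold of 3.46. C1qb and C1qc are neighbours on chromosome 4. C3ar1, C1s1, C9, C8a and C8b were each hit in 1 list, at a q-value above 0.05.

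The other lists gave few hits. Of 23 genes of macrophage identity, c-Maf_Ab lists hit 2, Itgam and Fcgr1, an Fc receptor gene, and Iso lists hit 1, Ctss. Of 20 reported c-Maf targets, 3 were hit in a c-Maf_Ab list and 4 in an Iso list (4 of 21 and 4 with Idh1, which was taken off this list after its hits were seen), and Il10 was hit in Iso 3 alone, with a fold of 4.84. Alternative activation had 1 of 24 in each antibody's lists, and classical activation had 3 of 23 (Ccl2, Ccl4 and Il12b, all in c-Maf_Ab 3) against 0. The Maf family with its partners had 2 of 24 (Fos and Maff in c-Maf_Ab 3) against 0. The citric acid cycle and isocitrate list had 3 of 21 in each, with Idh1 and, in c-Maf_Ab 4, Suclg2, a succinyl-CoA ligase gene, at a fold of 6.03. Lens crystallins had 1 of 14 (Crygb, from separate weak peaks with folds of 2.93 and 3.46) against 2. Markers of other cells were rare in both: T and B cells had 1 of 14 against 2, fibroblasts 1 of 10 against 0, neurons 0 of 12 against 1, and neutrophils and mast cells 0 of 14 against 0. Ribosomal proteins had 0 of 30 against 1, housekeeping genes 0 of 20 against 2, and histones 0 of 20 against 0. Counts this small cannot separate the antibodies, and a peak near a marker gene does not measure its expression. Listed genes hit in 1 library alone at a q-value above 0.05 were named after their values were seen.

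The element TGCTGAC was denser under the promoter peaks of both c-Maf_Ab lists than under those of either Iso list, from few copies. Promoters of the RefSeq table, 250 bp before to 50 bp after a start, were overlapped by boundary peaks at 103 promoters in c-Maf_Ab 3, 49 in c-Maf_Ab 4, 109 in Iso 3 and 30 in Iso 4. Both strands were searched for TGCTGAC (single arm), TGACTCA (core of AP-1 type) and TGACGTCA (core of CREB type), which can overlap each other, and for the whole palindrome. Anywhere in the promoter, at least 1 element occurred in 17.5%, 20.4%, 17.4% and 26.7% of these promoters, against 10.8% of all 21044, so whole promoters did not separate the antibodies. The whole palindrome occurred in 0 of 21044. TGCTGAC alone was in 12.6%, 14.3%, 4.59% and 16.7%, against 4.35% of all.

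Under the peaks, in an analysis added after the sequences had been seen, TGCTGAC occurred 10 times in 7184 bp of c-Maf_Ab 3, 5 times in 2719 bp of c-Maf_Ab 4, 1 time in 5885 bp of Iso 3 and 1 time in 1534 bp of Iso 4. That is 1.39 per kb (exact Poisson interval 0.668 to 2.56), 1.84 (0.597 to 4.29), 0.17 (0.0043 to 0.947) and 0.652 (0.0165 to 3.63), against 0.154 per kb of all promoters. Both c-Maf_Ab intervals lay above the value of all promoters, and both Iso intervals included it. The c-Maf_Ab and Iso intervals of the same number overlap. The mean difference was 1.205 per kb (exact permutation test over libraries, p = 0.333), with 1.22 for number 3 and 1.19 for number 4. It was 0.964 per kb without Iso 3. TGACTCA occurred 2, 2, 2 and 1 times and TGACGTCA 0, 0, 1 and 0 times in the same order.

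The inner core GCTGAC, whose 7 places under both c-Maf_Ab peaks are shown above, gave 2.92, 4.05, 0.34 and 0.652 per kb in the 4 lists, against 0.58 in all promoters. Since it was chosen from these sequences, its values are a description. GC content under the peaks was 58.5%, 55.5%, 56.0% and 52.7%, against 56.1% over all promoters, and its part in these counts was not tested. The copies of TGCTGAC in c-Maf_Ab 3 lay at Acss2, Aldh9a1, Btaf1, Gm10486, Nufip2, Pnp, Son, Tmed1, Ufl1 and Zfp324, and those in c-Maf_Ab 4 at Acss2, Btaf1, Chodl, H4c12 and Snrpc. Acss2 and Btaf1 are thus the genes whose copy both libraries covered. The element was not found in the printed promoters of Zfp143, Idh1, C1qb, C1qc or Cltc, which says only that these letters are not in those windows.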

How the data were processed

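Peaks of 4 libraries were read as the authors deposited them. Per the file headers, peaks were called per library with MACS 2.1.1.20160309 at a p-value cut-off of 0.01, with the number 4 input as control. The headers also give the human setting for effective genome size (2700000000 bp) for these mouse data, and say that q-values would not be calculated although the column holds values. The effect of that setting on fold enrichment, p-values and q-values was not tested. The submitters' processing notes name mm10, FastQC, MACS 1.4.2 and MACS2. No aligner is named (not given in the sources used here). Per the file headers, each peak has a pileup signal at its summit, a fold enrichment (its ratio to local background) and a p-value and q-value, both written as −log10, all the authors' values, used to describe, rank or filter peaks within a list.

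Distances ran from the peak interval to RefSeq gene boundaries (GRCm38.p6). Library values were compared with two-sided exact permutation tests (Python 3.11.15, scipy 1.17.1), and shares have Wilson intervals. Shared genes were counted with and without overlap of their peaks by at least 1 bp. The distance search was tested on simulated peaks. Where nothing says that libraries came from separate cultures, the spread between them may be technical.

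Named genes were up to 25 c-Maf_Ab-only, 12 Iso-only and 12 genes of all 4 lists by rank of p, overlapping peaks first, the genes of the 8 (c-Maf_Ab) or 4 (Iso) strongest boundary peaks, and listed genes hit in both lists of an antibody or at a q-value of at most 0.05. The members, gene lists and rules were chosen with earlier results of these data known. Of 278 listed genes 277 matched. Idh1, hit in both c-Maf_Ab lists, was taken off the reported c-Maf targets after its hits were seen, since its place there was unsure.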

Additional observations from a re-analysis of the deposited data

How the results depend on the processing

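The share of peaks at boundaries, their length and the share at starts kept the sign of the c-Maf_Ab minus Iso difference in every alternative run, though no test over these libraries can reach 0.05. The pileup difference turned to -0.74 tags for peaks with a q-value of at most 0.05 and to -0.02 without Iso 3. Leaving out 1 library at a time gave 0.317 to 0.826 points for the share, 7.5 to 13.5 bp for length, -0.02 to 1.95 tags for pileup and 2.55 to 6.20 points for the start share. The start share difference was 0.0025 points with a window of 5 kb. With the replicate numbers as a block the differences stayed at 0.572 points, 10.5 bp, 0.965 tags and 4.37 points, since the design is balanced (smallest p 0.5), and with 2 pairs it cannot be shown that the numbers pair the samples. The block left 46 of the 81 c-Maf_Ab genes and 50 of the 90 Iso genes, the same sets as those absent from both lists of the other antibody.

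Gene counts moved with the settings. For windows of 0.5, 2 and 5 kb, genes in both c-Maf_Ab lists numbered 46, 172 and 497 and in both Iso lists 43, 186 and 637. The c-Maf_Ab-only genes numbered 102 and 261 at 2 and 5 kb, and Iso-only genes 28, 114 and 366. With overlapping peaks the counts were 50 and 84 for c-Maf_Ab at 2 and 5 kb, and 16 for Iso at 5 kb. Of the 29 c-Maf_Ab-only genes with overlapping peaks, 25 stayed in that set at 2 kb and 22 at 5 kb. The rest had an Iso peak within the wider window. Of the 9 Iso-only genes with overlapping peaks, 5 and 4 stayed. Cuts by q-value or p-value were made in the lists of both antibodies, so genes of 1 antibody only may have weaker peaks of the other. At a q-value of at most 0.05 the counts were 11 and 2 genes in both lists, 8 and 0 in 1 antibody only, and 7 and 0 with overlap. At a p-value of 1e-05 or smaller they were 16 and 6, 10 and 2, and 8 and 0. Lists of equal length gave 43 genes in both Iso lists and 24 Iso-only genes. Requiring overlap gave 32 genes in both Iso lists, 29 c-Maf_Ab-only and 9 Iso-only genes. Leaving out 1 library at a time leaves a single list of 1 antibody, so the ranges are wide. They were 81 to 831 and 90 to 1415 genes for both lists, and 48 to 700 and 56 to 1264 for 1 antibody only. Where overlap was asked for they were 30 to 700 and 11 to 1264. The upper ends of these come from a single list, where no overlap could be required. Without Iso 3 or Iso 4 the overlapping c-Maf_Ab-only genes numbered 30 and 34. Promoters of all genes hit at the start held an element in 10.9% of cases for c-Maf_Ab 3 and 11.5% for Iso 4, in place of 17.5% and 26.7%. Where a value moved, the cause was not tested, except that fewer peaks or narrower windows leave fewer genes. A median summit of 3.92 to 5.92 tags limits what any single weak peak can show.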
